A study of Rattus norvegicus with 6 samples.

Results

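Adhesion G protein-coupled receptors, orphan receptors named by a Gpr number, class C Gprc receptors and the receptors of the lysophospholipids LPA and S1P were examined in oligodendrocyte progenitor cells (OPCs) of the rat. OPCs are glial cells that divide and become the oligodendrocytes that make myelin. Members were the genes whose symbol starts with Adgr, Gpr and a digit, Gprc, S1pr, Lpar or Ednr. In all, 78 of the 13355 genes tested were members: 13 adhesion receptors, 9 lysophospholipid receptors, 5 Gprc receptors and 51 numbered Gpr genes. The symbol rule also took in Gpr15lg, the gene of a receptor ligand, Gpr33-ps1, a pseudogene, and Gpr-named proteins of internal membranes such as Gpr155. Adgrg7, Gpr22 and Adgre4 had no value in the deposited table, and Ednra, Ednrb, S1pr3, Gpr6 and Adgrg6 were among the receptors not analysed here.

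The fibrinogen cultures received fibrinogen, the clot-forming plasma protein, for 48 h in differentiation medium. The control cultures are labelled unstimulated controls of the same 48 h, and their medium is not stated. If the media differed, their effect and that of fibrinogen cannot be told apart here. All cells were primary OPCs from rat pups of postnatal day 1 to 2 that had recovered for 2 days in proliferation medium with PDGF and NT3. RNA of 3 fibrinogen and 3 control cultures was hybridised to 6 Affymetrix rat gene arrays, and nothing in the labels says whether the cultures of a group came from separate animals, so p-values measure only the spread between these samples. The question, from the series title, is whether BMP signaling in OPCs is switched on by fibrinogen and myelin repair hindered.

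G protein-coupled receptors pass 7 times through the membrane and signal through G proteins to cyclic AMP, calcium or the GTPase RhoA. Adhesion receptors carry a long extracellular part that binds matrix or neighbouring cells and is cut near the membrane. Several members mark steps of the oligodendrocyte lineage: Adgrg1 (also called GPR56) keeps progenitors dividing in mice and zebrafish, Gpr17 appears transiently in committed precursors and restrains their maturation in mice, and Gpr37 appears in maturing oligodendrocytes.

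Fibrinogen cultures had more transcript of 6 members (Adgrg1, Adgrb2, Adgre5, Lpar4, S1pr2 and Gprc5b) and less of 3 (Gpr37, Gpr85 and Gpr155). These 9 of 78 members, or 11.5%, passed an adjusted p of 0.05 in limma (Benjamini-Hochberg over all genes), against a background of 7.16% of all genes tested. By direction, 4.16% of all genes were higher and 3.00% lower with fibrinogen. After centring of every array on its median, 45.7% of all called genes were higher, against 58.1% as deposited, and the members called were then 5 higher and 3 lower. The median log2 fold change (fibrinogen over control) was 0.035 over the members and 0.003 over all genes. The groups did not overlap for 25 members (32.1%), against 27.0% of all genes. The change exceeded 1 log2 unit in Adgrg1 alone among the members, and the 69 that did not pass lay within 0.49 log2 units of 0.

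All 9 called members were brighter than the arrays' median probe in at least 1 group. That was so for 32 members, of which 28.1% passed, against 11.3% of all genes in that range. Gpr37 was brighter in control cultures only, and the members were chosen with earlier results known, so these shares only describe. The other 46 members lay below the median probe in both groups and none passed in limma, against a background of 1.48%. An unadjusted p under 0.05 in limma was found for 3 of them (Adgre1, Gprc6a and Gpr165), and no alternative that tested them called any. The table has no detection calls, so it is not known which dim members were above background.

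**Figure D1:**
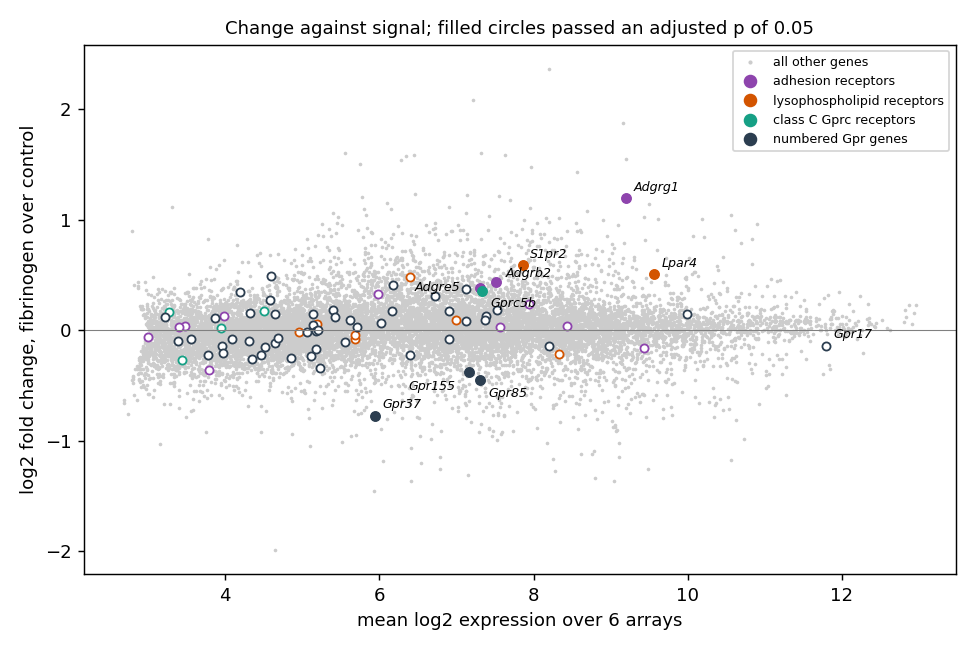
Each gene's log2 fold change, fibrinogen over control (vertical axis), against its mean log2 expression over 6 arrays (horizontal axis); grey dots are all other genes and circles are members by family, filled where the adjusted p was under 0.05. The filled circles lie at mean levels above 5.9, and Adgrg1 stands highest among the members at 1.19.

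Among the adhesion receptors, 3 of 13 rose, none fell and 10 did not pass. Of the 13 changes 10 were positive, with a median log2 fold change of 0.04. The share called was 23.1%, against 7.16% of all genes. Of the 13, 8 were brighter than the median probe in at least 1 group, a range in which 11.3% of all genes passed. Without any one array only 1 adhesion receptor was called higher, and the share of all genes called fell to between 2.68% and 4.43%. Adgrg1, whose known ligands include collagen III and transglutaminase 2 and which signals to RhoA (probe set 10809216), had log2 expression values of 9.92, 9.65 and 9.82 in fibrinogen cultures, against 8.46, 8.78 and 8.57 in control cultures. The lowest fibrinogen array exceeded the highest control array by more than the range of either group. Adgrg1 thus rose 2.29-fold (log2 fold change 1.19, SE 0.11, 95% interval 0.93 to 1.46, adjusted p = 0.00268). Its call held under all 16 alternatives, with adjusted p-values of 1.23e-06 to 0.0324.

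The brain-specific angiogenesis inhibitor genes encode the adhesion receptors Adgrb1, Adgrb2 and Adgrb3, which are abundant in the nervous system. Adgrb2 (10872361) stood at 7.86, 7.71 and 7.63 in fibrinogen cultures and at 7.26, 7.36 and 7.27 in control cultures, on the log2 scale. It rose 1.35-fold without overlap (log2 fold change 0.44, SE 0.09, adjusted p = 0.0290), a call that the omission of any single array ended (adjusted p from 0.0552, omitting fibrinogen 3, up to 0.0949, omitting fibrinogen 1), as did a test on each gene's own variance alone (adjusted p = 0.0734). Adgrb1, which binds phosphatidylserine on dying cells, averaged 8.07 ± 0.07 in fibrinogen and 7.83 ± 0.02 in control cultures (SD, n = 3 each). Its groups did not overlap, but it missed the threshold (log2 fold change 0.24, adjusted p = 0.106; adjusted p = 0.0244 with genes under the median brightness left out). Adgrb3, a receptor for C1q-like proteins, was at 0.03 (95% interval -0.27 to 0.33), and at -0.02 after centring.

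Adgre5 (CD97; 10806806), an adhesion receptor well known from leukocytes that binds CD55, had values of 7.63, 7.39 and 7.46 in fibrinogen cultures, against 7.15, 7.10 and 7.08 in control cultures. The control arrays lay close together and below every fibrinogen array. The rise was 1.3-fold (log2 fold change 0.38, SE 0.09, adjusted p = 0.0433). The call ended on omission of any single array (adjusted p = 0.0779 to 0.127), after centring each array on its median (adjusted p = 0.0658), after repeated quantile normalization (adjusted p = 0.0651) and on its own variance alone (adjusted p = 0.0917).

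The latrophilins Adgrl1, Adgrl2 and Adgrl3, receptors for teneurin and FLRT adhesion proteins, did not pass. Adgrl2 was at 6.18, 6.08 and 6.18 in fibrinogen cultures and 5.69, 6.01 and 5.76 in control cultures, a log2 fold change of 0.33 (95% interval 0.09 to 0.56, adjusted p = 0.114). Adgrl1 and Adgrl3 were at 0.04 and -0.16 on that scale (95% intervals -0.14 to 0.21 and -0.41 to 0.09). The remaining adhesion members were dim: Adgre1 (F4/80, a macrophage marker in mice) averaged 3.61 ± 0.14 in fibrinogen and 3.97 ± 0.10 in control cultures (SD, n = 3 each; adjusted p = 0.0835). The others below the median probe were Adgrv1, Adgrg2, Adgrl4 and Adgrf5, with log2 fold changes of -0.06 to 0.13. Adgrl4 and Adgrf5 are known from endothelium.

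The Celsr genes are adhesion receptors under another symbol and so are no members. Celsr1 was not measured. Both that were measured were called higher, against 4.16% of all genes: Celsr2 1.61-fold (adjusted p = 0.00907) and Celsr3 1.58-fold (adjusted p = 0.0365). Celsr3 lay below the median probe in control cultures but not in fibrinogen cultures. The call of Celsr2 was lost on its own variance alone (adjusted p = 0.0517), as was that of Celsr3 (adjusted p = 0.143). The call of Celsr3 was kept without control 2 and lost without any other single array (highest adjusted p = 0.122).

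**Figure D2:**
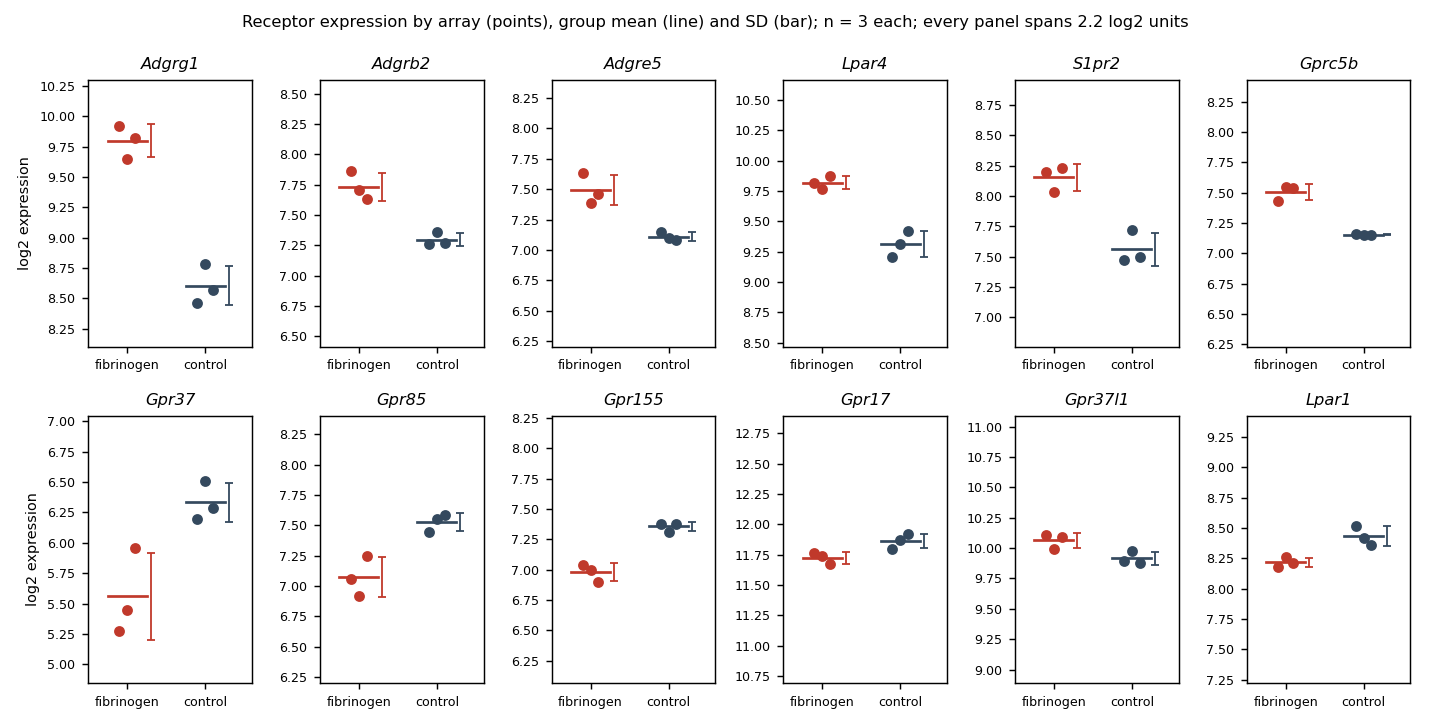
Log2 expression of 12 members on each array (points), with the group mean (line) and SD (bar), fibrinogen left and control right, n = 3 each. Every panel spans the same number of log2 units. The panels show the called members and Gpr17, Gpr37l1 and Lpar1, a choice in which no groups overlap. Among all 78 members the groups did not overlap for 32.1%, against 27.0% of all genes. The gap is widest for Adgrg1.

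LPA and S1P are lipids that signal through receptors coupled to several G proteins. Of their 9 measured receptors 2 rose, none fell and 7 did not pass (median log2 fold change 0.05). The share called was 22.2%, against 7.16% of all genes, and 0 to 2 were called higher without any one array. Of the 9, 5 were brighter than the median probe in at least 1 group, where 11.3% of all genes passed. S1pr2 (10915483), an S1P receptor that couples to the RhoA pathway and also binds the myelin inhibitor Nogo-A, had values of 8.20, 8.03 and 8.23 in fibrinogen cultures, against 7.47, 7.72 and 7.5 in control cultures. It rose 1.51-fold (log2 fold change 0.59, SE 0.10, adjusted p = 0.0169). The call was lost without fibrinogen 1, fibrinogen 3, control 1 or control 3 (adjusted p = 0.0753, 0.0728, 0.0513 and 0.0641) and on its own variance alone (adjusted p = 0.0733). S1pr1, an S1P receptor coupled to inhibitory G proteins, was at 0.09 (95% interval -0.24 to 0.42). S1pr5, known from mature oligodendrocytes, was at 5.66, 5.50 and 5.83 in fibrinogen cultures and 5.55, 6.02 and 5.55 in control cultures, with overlap (log2 fold change -0.04, 95% interval -0.40 to 0.31).

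Lpar4 (10934631), an LPA receptor related to the P2Y receptors, was at 9.82, 9.77 and 9.87 in fibrinogen cultures and at 9.21, 9.31 and 9.42 in control cultures. It rose 1.42-fold (log2 fold change 0.51, SE 0.08, adjusted p = 0.0148), a call lost without fibrinogen 1, 2 or 3 (adjusted p = 0.0645, 0.0523 and 0.0657). Lpar6, its relative, had values of 6.79, 6.64 and 6.50 in fibrinogen cultures, against 5.91, 6.27 and 6.30 in control cultures. Those groups did not overlap either, and the log2 fold change of 0.48 missed the threshold (adjusted p = 0.0757), though not with the dimmest genes left out and 10016 tested (adjusted p = 0.0461), with genes under the median brightness left out (adjusted p = 0.0219) or with trend and robust moderation (adjusted p = 0.0294). Lpar1, the LPA receptor best known from oligodendrocytes, went the other way in its values: 8.18, 8.26 and 8.21 in fibrinogen cultures and 8.52, 8.42 and 8.36 in control cultures. Its log2 fold change was -0.22 (95% interval -0.40 to -0.04) and did not pass (adjusted p = 0.158; adjusted p = 0.0469 with genes under the median brightness left out). Whether Lpar4 and Lpar1 differ in their response was not tested.

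Among 5 Gprc receptors, which belong to the class of the metabotropic glutamate receptors, Gprc5b rose and 4 did not pass. The share called was 20%, against 7.16% of all genes. Gprc5b (10725279), an orphan, was at 7.43, 7.55 and 7.54 in fibrinogen cultures, against 7.16, 7.15 and 7.15 in control cultures. The control values were nearly equal and all below the fibrinogen values (log2 fold change 0.35, SE 0.07, adjusted p = 0.0318), a 1.28-fold rise whose call ended on omission of any single array (adjusted p = 0.0691 to 0.116). Gprc5a, Gprc5c, Gprc5d and Gprc6a all lay below the median probe, with log2 fold changes of 0.16, 0.17, 0.02 and -0.27 (Gprc5d fell on the other side of 0, at -0.0233, after centring of the arrays). The 2 probe sets of Gprc5c disagreed in sign, with log2 fold changes of 0.17 and -0.21, and neither passed.

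Promoters of 2 called members are shown because the series title names BMP signaling, whose SMAD proteins bind the palindrome GGCGCC. Adgrg1 had the largest rise. Gprc5b was the 1 of 8 called members with a promoter sequence that held GGCGCC, so the 2 shown do not stand for the called members. The 250 bases before the RefSeq start are given 5′ to 3′ on the gene's strand (build GRCr8). Capitals mark matches.
Adgrg1 promoter, chr19:10047139-10047388, minus strand: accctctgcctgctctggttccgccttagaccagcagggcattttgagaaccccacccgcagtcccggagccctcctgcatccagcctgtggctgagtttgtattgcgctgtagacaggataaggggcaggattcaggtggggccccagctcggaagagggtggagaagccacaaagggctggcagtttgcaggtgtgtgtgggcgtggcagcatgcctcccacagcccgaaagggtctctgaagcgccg
Gprc5b promoter, chr1:182772277-182772526, minus strand: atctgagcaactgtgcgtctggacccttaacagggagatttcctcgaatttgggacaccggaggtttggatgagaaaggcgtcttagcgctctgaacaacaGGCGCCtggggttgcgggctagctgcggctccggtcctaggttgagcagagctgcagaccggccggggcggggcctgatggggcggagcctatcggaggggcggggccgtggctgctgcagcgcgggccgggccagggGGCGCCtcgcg
Gprc5b holds GGCGCC at 2 places in this window, and Adgrg1 holds none. Over both strands, which read alike for a palindrome, GGCGCC occurred in 8.69% of 33469 RefSeq rat promoter windows. It occurred in 7 of the 59 members with a window and in 1 of the 8 called members with one. For each motif, members were counted by gene and the background by window, so they are in unlike units. The longer SMAD palindrome GTCTAGAC occurred in none of the 59 (0.173% of all windows). The E-box CAGCTG, bound by helix-loop-helix factors such as those of the Olig family, occurred in 9 of the 59 and in none of the 8 (12% of all windows). The motifs do not overlap each other, and a match is a description of letters only.

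Of 51 numbered Gpr genes, 3 fell, none rose and 48 did not pass, with 24 changes positive, 1 at 0 and 26 negative. The 3 called were 5.88% of these genes, against 7.16% of all genes called in either direction and 3.00% called lower. Gpr37 (10861358), a receptor for which prosaposin has been proposed as ligand and which restrains oligodendrocyte maturation in mice, had values of 5.27, 5.45 and 5.96 in fibrinogen cultures, against 6.20, 6.51 and 6.29 in control cultures. Fibrinogen 3 lay nearest to the controls, and the spread within the fibrinogen group was the wider (SD 0.36 against 0.16, n = 3 each). Gpr37 fell 1.71-fold (log2 fold change -0.77, SE 0.18, 95% interval -1.20 to -0.35, adjusted p = 0.0487). Its call was kept without fibrinogen 3 (adjusted p = 0.0213) and lost without fibrinogen 1 or 2 or control 1, 2 or 3 (adjusted p = 0.142, 0.151, 0.0883, 0.118 and 0.113) and on its own variance alone (adjusted p = 0.185). The mean in fibrinogen cultures was under the arrays' median probe.

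Gpr37l1, the relative of Gpr37 that is abundant in astrocytes and OPCs, was at 10.11, 9.99 and 10.09 in fibrinogen cultures and 9.89, 9.98 and 9.88 in control cultures. The groups were separated by 0.01 and the log2 fold change of 0.15 missed the threshold (95% interval -0.03 to 0.32, adjusted p = 0.334). Psap, the gene of prosaposin, was at -0.01 (95% interval -0.17 to 0.15).

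Gpr17 (10803602) had values of 11.76, 11.74 and 11.67 in fibrinogen cultures, against 11.80, 11.87 and 11.92 in control cultures. Its probe set was brighter than those of 99.4% of genes. All fibrinogen arrays lay below all control arrays, but by little: the log2 fold change was -0.14 (SE 0.07, 95% interval -0.31 to 0.03) and did not pass (adjusted p = 0.345). With a variance trend and robust moderation in limma it did pass (adjusted p = 0.0290) at the same size of change.

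Markers of lineage stages moved beside Adgrg1 and Gpr37. All 8 measured progenitor markers lay above the median probe in control arrays. Of these, 5 rose and 3 did not pass (log2 fold changes from -0.09 to 0.68, median 0.52). Their mean log2 level per array was 9.86 to 9.88 with fibrinogen and 9.42 to 9.50 in control. Of 6 markers of committed and newly formed oligodendrocytes, the stage of Gpr17, 4 fell and 2 did not pass (median -0.38, level 10.16 to 10.23 against 10.63 to 10.72). Of 9 mature oligodendrocyte markers, 5 fell and 4 did not pass (median -0.39, level 7.95 to 8.04 against 8.36 to 8.40). The shares called in these lists were, in turn, 62.5%, 66.7% and 55.6%, against 7.16% of all genes. In these bulk samples fewer cells of a stage and less RNA per cell cannot be told apart, and the part of these markers in the receptor changes was not tested.

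**Figure D3:**
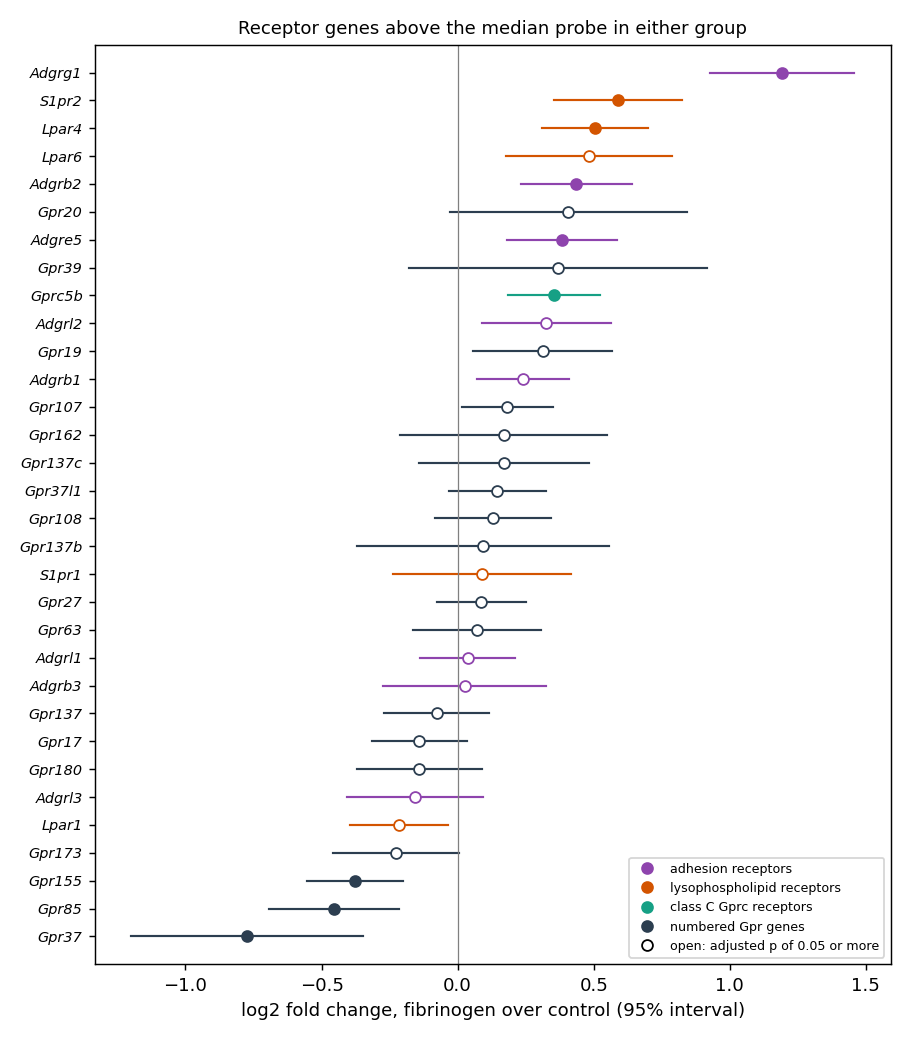
Log2 fold change, fibrinogen over control (horizontal axis), with its 95% interval for the 32 members above the median probe in either group, ordered by change and coloured by family; filled points passed an adjusted p of 0.05. Adhesion, lysophospholipid and Gprc members make up the 6 filled points above 0, from Gprc5b at 0.35 to Adgrg1 at 1.19, and the 3 filled points below 0 are numbered Gpr genes.

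Gpr85 (10861124) encodes an orphan receptor of the brain that is nearly unchanged across vertebrates. It was at 7.06, 6.92 and 7.25 in fibrinogen cultures, against 7.45, 7.55 and 7.59 in control cultures, and fell 1.37-fold (log2 fold change -0.45, SE 0.10, adjusted p = 0.0433). The call was kept without fibrinogen 3 (adjusted p = 0.0465) and lost without any other single array (adjusted p from 0.0725, omitting control 1, up to 0.139, omitting fibrinogen 1) and on its own variance alone (adjusted p = 0.123). Its relatives Gpr27 and Gpr173, picked with their values known, had log2 fold changes of 0.09 (95% interval -0.08 to 0.25) and -0.23 (adjusted p = 0.247), and neither passed.

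Gpr155 (10846185) encodes a cholesterol-sensing protein of the lysosome. Its values were 7.04, 7.0 and 6.90 in fibrinogen cultures and 7.38, 7.31 and 7.38 in control cultures, so the groups were well apart. It fell 1.3-fold (log2 fold change -0.38, SE 0.08, adjusted p = 0.0295), a call that ended on omission of any single array (adjusted p from 0.0594, omitting control 2, up to 0.106, omitting fibrinogen 3). Gpr155 was the 1 gene called (14.3%, against 7.16% of all genes) among 7 measured Gpr-named proteins of internal membranes, with Gpr107, Gpr108, Gpr137, Gpr137b, Gpr137c and Gpr180. Of these, Gpr107, a Golgi and trafficking protein chosen after its values were seen, averaged 7.62 ± 0.05 in fibrinogen and 7.44 ± 0.03 in control cultures (SD, n = 3 each) and did not pass (adjusted p = 0.193), nor did Gpr180 (log2 fold change -0.14, 95% interval -0.37 to 0.09). The probe sets of Gpr137c disagreed in sign (log2 fold changes of 0.17 and -0.30, neither past the threshold).

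Other numbered receptors did not pass. Gpr39, a zinc-sensing receptor, was at 7.35, 6.97 and 7.62 in fibrinogen cultures and 6.60, 6.84 and 7.39 in control cultures, with overlap (log2 fold change 0.37, 95% interval -0.18 to 0.92). Gpr20, an orphan, was at 0.41 (95% interval -0.03 to 0.84). Gpr165 was at 0.49 (adjusted p = 0.122) and lay below the median probe. Gpr19, an orphan chosen after its values were seen, was at 0.31 (95% interval 0.06 to 0.57, adjusted p = 0.151).

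Gpr183, a receptor for oxysterols that steers immune cells, was at -0.34 (95% interval -0.80 to 0.12), Gpr83 at -0.26 (95% interval -0.60 to 0.09) and Gprc6a at -0.27 (adjusted p = 0.0980). The constitutively active receptors Gpr3 and Gpr12, which raise cyclic AMP without a ligand, were at 0.10 and -0.25 (95% intervals -0.20 to 0.40 and -0.60 to 0.11). Gpr75 was at -0.22 (95% interval -0.45 to 0.01). All 7 lipid and metabolite receptors measured (Gpr18, Gpr34, Gpr35, Gpr84, Gpr119, Gpr174 and Gpr183) and both proton-sensing receptors (Gpr4 and Gpr65) lay below the median probe. None of them passed in limma, and 0 had an unadjusted p under 0.05.

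Several dim members are known from immune or vessel cells. Among 10 markers of microglia and macrophages, 8 were under the median probe in control cultures, Itgam fell and 9 did not pass. Of this list 10% passed, against 7.16% of all genes. Its mean log2 level per array was 4.55 to 4.61 with fibrinogen and 4.68 to 4.88 in control. All 7 endothelial markers measured lay below the median probe (3.83 to 4.04 with fibrinogen, 3.83 to 4.22 in control). Of 8 pericyte and fibroblast markers, 6 lay below it and Cspg4, also a progenitor marker, rose (5.0 to 5.06 with fibrinogen, 5.0 to 5.14 in control). Of this list 12.5% passed, against 7.16% of all genes. Of 6 Schwann cell markers, 5 lay below the median probe and none passed in limma, with 2 at an unadjusted p under 0.05 (mean log2 level per array 4.47 to 4.68 with fibrinogen, 4.54 to 4.71 in control). Of 9 astrocyte markers, 1 lay below the median probe, 4 rose (Gfap, Slc1a3, Slc1a2 and Fgfr3) and 5 did not pass. Of this list 44.4% passed, against 7.16% of all genes. In sign, 5 changes were positive and 4 negative, with log2 fold changes from -0.24 to 1.00 and a median of 0.04. Astrocyte markers had a mean log2 level per array of 8.0 to 8.04 with fibrinogen and 7.70 to 7.79 in control. Of 10 neuron markers, 2 rose (Stmn2 and Elavl4), 2 fell (Syt1 and Elavl3) and 6 did not pass. Log2 fold changes ran from -1.16 to 0.90. Of this list 40% passed, against 7.16% of all genes. Neuron markers had a mean log2 level per array of 7.42 to 7.53 with fibrinogen and 7.47 to 7.60 in control. The part of these cell type markers in the receptor changes was not tested.

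Of 27 measured genes of receptor ligands, and of enzymes that make or clear them, 3 rose, 1 fell and 23 did not pass (median log2 fold change -0.01). The share called was 14.8%, against 7.16% of all genes. Of the 27, 15 were brighter than the median probe in at least 1 group, a range in which 11.3% of all genes passed. Enpp2 (10903736) encodes autotaxin, the secreted enzyme that makes LPA and that oligodendrocytes release. It was at 10.36, 10.42 and 10.43 in fibrinogen cultures, against 10.77, 10.91 and 10.93 in control cultures, and fell 1.38-fold (log2 fold change -0.47, SE 0.08, adjusted p = 0.0158). The call was kept without control 1 (adjusted p = 0.0215) and lost without any other single array (highest adjusted p = 0.0720). Plpp3, a phosphatase that clears LPA and S1P, was at 0.09 (95% interval -0.08 to 0.26). The S1P genes Sphk1, which makes S1P, and Sgpl1, which breaks it down, were at -0.28 and 0.31 and did not pass (adjusted p = 0.227 and 0.123; for Sgpl1, adjusted p = 0.0488 without control 2 and 0.0379 with genes under the median brightness left out).

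Ece1 (10873203), the enzyme that releases active endothelin, was at 9.02, 8.97 and 9.11 in fibrinogen cultures and 8.35, 8.43 and 8.29 in control cultures. It rose 1.6-fold (log2 fold change 0.68, SE 0.08, adjusted p = 0.00477), a call held under all 16 alternatives. The endothelin genes Edn1 and Edn3 were dim and did not pass (log2 fold changes 0.07 and -0.22).

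C1ql1 (10747976), a secreted C1q-like protein that binds Adgrb3 and also one of the progenitor markers above, was at 8.86, 8.90 and 8.98 in fibrinogen cultures, against 8.30, 8.27 and 8.12 in control cultures. It rose 1.61-fold (adjusted p = 0.00503), also under all 16 alternatives, while its receptor gene stood at 0.03 as given above. Col4a1, a basement membrane collagen that binds Adgrg6, rose 1.45-fold (adjusted p = 0.0141), a call lost without fibrinogen 1, fibrinogen 2 or control 3 (highest adjusted p = 0.0654) and on its own variance alone (adjusted p = 0.0516). The ligand genes of Adgrg1, chosen after their values were seen, were dim: Col3a1 averaged 4.81 ± 0.08 in fibrinogen and 4.83 ± 0.16 in control cultures, and Tgm2 averaged 4.85 ± 0.44 in fibrinogen and 4.93 ± 0.34 in control cultures (SD, n = 3 each).

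**Figure D4:**
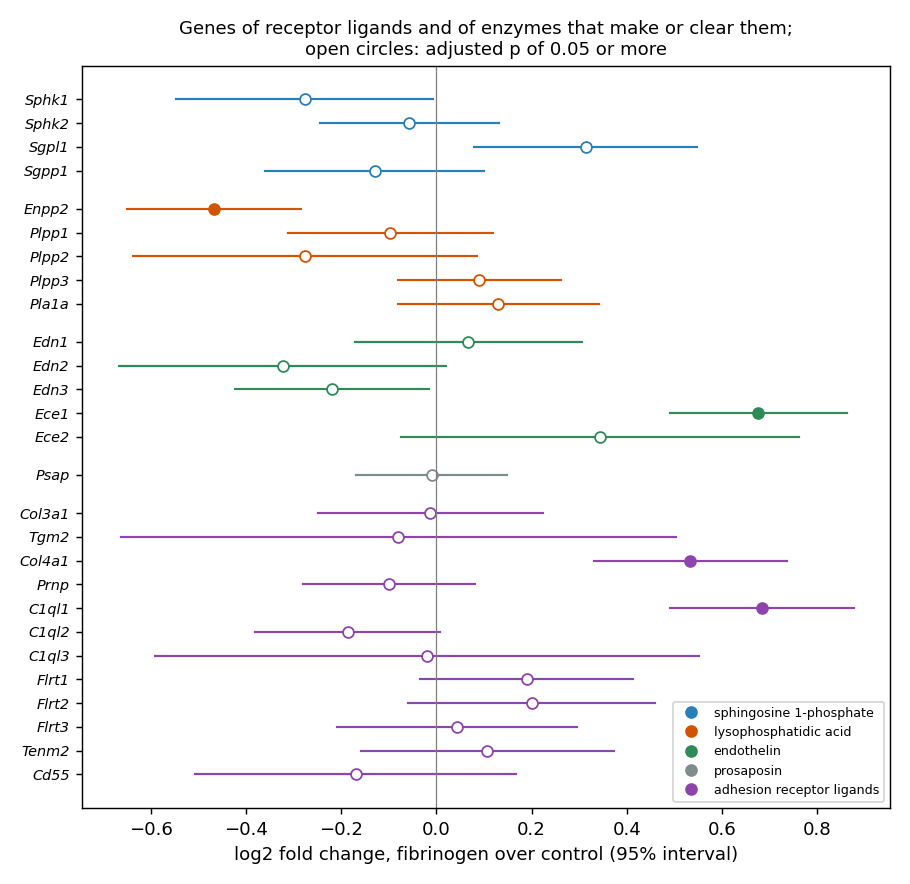
Log2 fold change, fibrinogen over control (horizontal axis), with its 95% interval for the 27 measured genes of receptor ligands and of enzymes that make or clear them, coloured by the ligand they belong to; filled points passed an adjusted p of 0.05. Ece1, Col4a1 and C1ql1 lie above 0, Enpp2 lies below 0, and the intervals of most others cross 0.

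Of 14 genes of G proteins, receptor kinases and arrestins, Gnaq fell and 13 did not pass (median log2 fold change 0.03). The share called was 7.14%, against 7.16% of all genes. Gnaq (10714206), the G protein alpha subunit that activates phospholipase C, was at 8.96, 9.05 and 9.07 in fibrinogen cultures, against 9.43, 9.46 and 9.44 in control cultures. It fell 1.33-fold (adjusted p = 0.0174), a call kept without control 1 (adjusted p = 0.0428) and lost without any other single array (highest adjusted p = 0.0745). Gnai2, an inhibitory subunit, averaged 10.77 ± 0.06 in fibrinogen and 10.47 ± 0.06 in control cultures (SD, n = 3 each), and missed the threshold (log2 fold change 0.30, adjusted p = 0.0607). It passed under 4 of the 16 alternatives: with the dimmest genes left out and 10016 tested (adjusted p = 0.0306), without genes under the median brightness (adjusted p = 0.0117), with trend and robust moderation (adjusted p = 0.000687) and with array weights (adjusted p = 0.0497). Gna13, which couples receptors to RhoA, was at 0.19 (adjusted p = 0.233).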

How the data were processed

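The table analysed gives log2 expression as deposited by the authors, with a column for each array. The submitters' processing notes list RMA and limma with no version; build and other steps are not given in the sources used here. Values were present for 23631 of 26312 probe sets, with array medians of 5.78 to 5.84. RMA compresses changes of dim probes, and the number of arrays limits the precision (median SE over the members 0.112). Probes were named from the platform annotation. Each gene was represented by its brightest single-symbol probe (13355 genes). All 78 members matched a RefSeq gene by gene number.

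Groups were taken from titles. The 2 groups were compared two-sided, with no covariate, by lmFit and eBayes of limma 3.58.1 under R 4.3.3, with Benjamini-Hochberg adjustment over all genes; adjusted p-values are from this fit. The fit was tested on simulated data. Fold changes are fibrinogen over control. The members and lists were chosen with earlier results of these data known, so lists are described by counts and medians. Named were Gpr17, Gpr37 and Adgrg1, every called member, the 3 brightest members of each family, the 4 largest changes in each direction that missed the threshold, a fixed set of receptors, and, of other lists, called genes and up to 4 more with the smallest p; others are named to account for the members. Psap, Plpp3, Edn1 and Gpr137c were named after their values were seen, and Edn3, Sphk1 and Sgpl1 by the rule. Same-numbered arrays did not deviate together (correlations 0.02, -0.14 and -0.07), so numbers were not taken to pair them. Promoter sequences are RefSeq's (GRCr8). In all, 16 alternatives were run.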

Additional observations from a re-analysis of the deposited data

How the results depend on the processing

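Adgrg1 was the 1 called member whose call held under all 16 alternatives. The count of members called was 6 higher and 3 lower. The unmoderated test, on each gene's own variance alone, called 3 higher and 1 lower (Adgrb2, Adgre5, S1pr2, Gpr85 and Gpr37 were lost), adjustment over all valued probes 4 higher and 1 lower (Adgre5, Gprc5b, Gpr85 and Gpr37 were lost), and the fit with the replicate number as a block, which leaves fewer residual degrees of freedom, 1 higher and 0 lower, with 2.57% of all genes called; the count of ligand genes lower was then 0. Without any one array, 1 to 3 members were higher and 0 to 2 lower, and 0 to 1 ligand gene was lower. Calls were lost over all genes too. The share of all genes called was 7.16% in the main fit and 2.68% (without fibrinogen 1) to 4.43% (without control 2) with an array omitted. It was 3.74% in the unmoderated test and 5.02% with adjustment over all valued probes. The median change of the members, 0.035, was 0.13 without genes under the median brightness (27 members left) and -0.0117 after centring each array on its median, and ran from -0.0067 to 0.0533 without any one array. For Gpr37 the change of -0.77 missed the threshold when adjusted over all valued probes (adjusted p = 0.0731), with the unmoderated test and with the replicate block, and ran from -0.97 to -0.63 without any one array. For Gpr17 the change of -0.14 passed only with trend and robust moderation.

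Named genes near 0 changed sign. Adgrb3 was at -0.02 after centring, -0.0067 after repeated quantile normalization and -0.0149 with array weights, and Adgrl1 and Gprc5d were at -0.01 and -0.0233 after centring. The mean of both probes gave -0.0167 for Gprc5c and -0.065 for Gpr137c, and array weights gave 0.0708 for Tgm2. Without any one array the changes ran from -0.105 to 0.12 for Adgrb3, -0.0083 to 0.0667 for Adgrl1, -0.127 to 0.113 for S1pr5, -0.0983 to 0.117 for Gprc5d, -0.0967 to 0.0583 for Col3a1, -0.317 to 0.123 for Tgm2 and -0.0183 to 0.0067 for Psap. The cause of these differences was not tested. Background was not measured in the table, so what signal over background limits is not known for the 46 dim members.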
